A study of Mus musculus with 8 samples.

Results

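The 9 genes described here encode dopamine and adrenergic receptors, the cell surface receptors through which dopamine and noradrenaline act: Drd1, Drd5 and Drd2 for dopamine, and Adra1a, Adra1b, Adra1d, Adra2a, Adra2c and Adrb1 for noradrenaline and adrenaline. They were taken by gene symbol from a table of raw read counts with 24527 rows, and all 9 were found in it. Their mRNA was measured by RNA sequencing in the hippocampus of 4 wild-type C57BL/6J males exposed to bisphenol A (BPA, a plastics monomer that can act on hormone receptors), against 4 wild-type control males of that strain. The mothers of the BPA mice ate 50 mg of BPA per kg of a low-phytoestrogen diet through gestation and lactation, and the mothers of the control mice ate that diet with 0 mg. All offspring ate the control diet from weaning on postnatal day 21, and the hippocampi were from mice of 20 weeks, so the comparison bears on exposure that had ended long before sampling. The animals are described as independent biological replicates in the series text, which does not say whether littermates were used, so p-values cover only the variation among these animals.

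All 9 receptors are G protein-coupled. The D1 class (Drd1, Drd5) and the beta receptor Adrb1 act through stimulatory G proteins that raise cyclic AMP, the D2 class (Drd2) and the alpha-2 receptors act through inhibitory G proteins that lower it, and the alpha-1 receptors act through Gq proteins and phospholipase C. The hippocampus receives noradrenergic axons from the locus coeruleus and dopaminergic input from the midbrain and, in rodents, from the locus coeruleus as well, and both transmitters are known to modulate synaptic plasticity and memory there. A receptor carried on these incoming axons is made from mRNA in cell bodies outside the hippocampus, so hippocampal RNA reports receptors made by cells within the dissected tissue.

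The libraries held 43.1 to 54.01 M (mega) counts in BPA mice and 27.1 to 40.8 M in control mice, so every BPA library was deeper than every control library and exposure and depth cannot be told apart by group. Levels are given as CPM, read counts relative to the total of their library, after TMM scaling, which evens out differences in composition. Hippocampal identity genes were present in every library: the 6 dentate granule cell markers summed to 492 to 528 CPM in BPA mice and 375 to 542 CPM in control mice, and the 6 markers of CA3 and CA2 pyramidal neurons to 232 to 251 CPM in BPA mice and 233 to 265 CPM in control mice. The 4 CA1 pyramidal markers summed to 251 to 278 CPM in BPA mice and 241 to 321 CPM in control mice. All 6 dentate markers had a fold above 1 in BPA mice (median log2 fold change 0.19). All 4 CA1 markers had a fold below 1 (median -0.12), and the CA3 and CA2 markers were split 3 higher and 3 lower. Control replicates 1 and 4 had the lowest dentate sums, 375 and 412 CPM, and the highest CA1 sums, 318 and 321 CPM. The part of subfield make-up in the receptor levels was not tested. The 8 interneuron markers summed to 1044 to 1080 CPM in BPA mice and 989 to 1099 CPM in control mice. The 7 astrocyte markers summed to 8756 to 9968 CPM in BPA mice and 9909 to 11478 CPM in control mice. Most of the astrocyte sum was Slc1a2, at 6581 to 7724 CPM in BPA mice and 7772 to 9296 CPM in control mice. Its groups did not overlap, as was so for 2.79% of all genes tested. Of the 7 astrocyte markers 4 were higher in BPA mice and 3 lower. No marker in these 5 lists was called. Choroid plexus, which lies beside the hippocampus, was carried along unevenly. Its 11 markers all had a fold below 1 in BPA mice, without a call. They summed to 163 to 817 CPM in BPA mice, highest in BPA replicate 3, and to 205 to 3073 CPM in control mice, highest in control replicate 2. The other controls summed to 205 to 301 CPM, so only control replicate 2 lay above the BPA mice. The log2 fold change without both BPA replicate 3 and control replicate 2 is given beside the values of each receptor.

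None of the 9 receptors differed between BPA and control mice by the quasi-likelihood test of edgeR at an adjusted p of 0.05 over all 15434 genes tested, and none had an unadjusted p under 0.05 (adjusted p 0.955 to 0.981, lowest unadjusted p 0.104 for Adra2a). All 9 passed the filter on low counts. Over all genes tested 0.0% passed the adjusted threshold and 4.52% had an unadjusted p under 0.05. Limma-voom also called 0 of the 9 receptors (0.0% of all genes tested), as did DESeq2, which called 0.0337% of the 20749 genes it gave a p for. Of the receptors 6 had a log2 fold change above 0 and 3 below, with a median of 0.044; over all genes tested 50.0% lay above 0 and the median was 3.87e-05. The groups overlapped for each of the 9 receptors, where 2.79% of all genes tested had groups that did not overlap. For all 9 the fold had a 95% interval that stayed within 1.5-fold both ways, as it did for 85.4% of all genes tested.

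**Figure D1:**
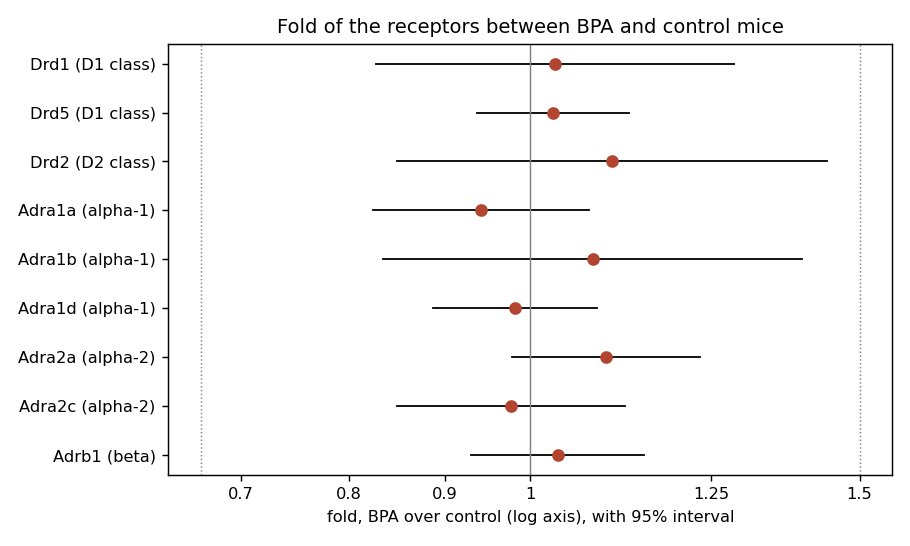
Estimated fold of each receptor in BPA over control mice (points, 4 mice per group) with its 95% interval (lines) on a log axis; the solid line marks no difference and the dotted lines mark 1.5-fold in each direction. Every interval crosses 1 and lies inside the dotted lines, and the widest is that of Drd2, from 0.848 to 1.44.

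Drd5, the D1-class receptor with the higher affinity for dopamine, had 15.5, 16.2, 13.9 and 15.5 CPM in BPA replicates 1 to 4, against 14.5, 15.1, 14.5 and 15.4 CPM in control replicates 1 to 4. BPA replicates 1, 2 and 4 lay just above the highest control and BPA replicate 3 lay below the lowest, so the groups overlapped. The fold was 1.03 (95% interval 0.937 to 1.13), the narrowest interval of the 3 dopamine receptors. The log2 fold change was 0.040 with all libraries, 0.081 without BPA replicate 3 and 0.088 without both choroid-rich libraries, and it ran from 0.0096 to 0.081 as 1 library at a time was left out. Drd5 (chromosome 5, 38319367 to 38322518) is annotated as a single exon, and the antisense transcript Gm26560 overlaps it on the other strand. The libraries were stranded, but it is not stated whether counting used strand, so reads of the antisense transcript may be included.

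Drd1, the other D1-class receptor and the one that prevails in striatum, varied most between BPA mice, with 5.25, 4.65, 7.49 and 6.68 CPM in BPA replicates 1 to 4. It had 6.13, 6.53, 4.94 and 5.64 CPM in control replicates 1 to 4. The lowest and the highest of all 8 libraries were both BPA mice, so the BPA values enclosed the control values. The means were 6.02 ± 1.30 CPM in BPA mice and 5.81 ± 0.684 CPM in control mice (SD, n = 4 each), a fold of 1.03 (95% interval 0.827 to 1.28). BPA replicate 3 and control replicate 2, the libraries with most choroid plexus RNA in their groups, also had the highest Drd1 of their groups. Without both, the log2 fold change of Drd1 was -0.024, against 0.044 with all libraries; the part of the carried tissue in the spread of Drd1 was not tested.

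Drd2, the D2-class receptor, which in mouse hippocampus is known as a marker of the mossy cells of the dentate hilus, had 2.19, 2.76, 2.49 and 3.16 CPM in BPA replicates 1 to 4, against 2.62, 2.40, 2.90 and 1.60 CPM in control replicates 1 to 4. Control replicate 4, the shallowest library, was the lowest of all 8, and the other 3 controls lay within the range of the BPA mice. The counts behind these values were small, from 98 to 148 reads in BPA libraries and from 42 to 106 reads in control libraries. The fold was 1.11 (95% interval 0.848 to 1.44). The log2 fold change was 0.14 with all libraries and 0.16 without both choroid-rich libraries. With 1 library left out it ran from 0.0077, without control replicate 4, to 0.25, without control replicate 3.

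**Figure D2:**
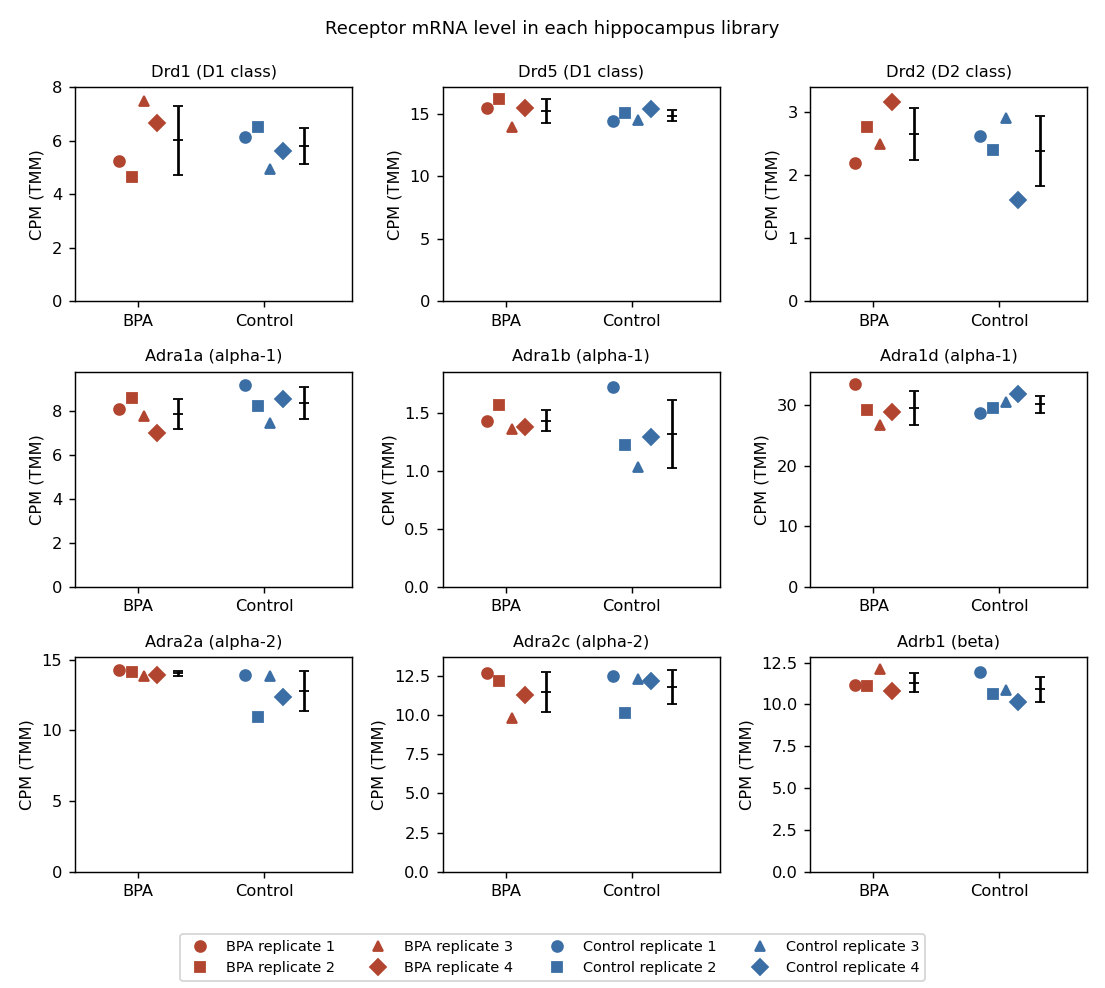
Level of each receptor in CPM with TMM scaling (vertical axis, from 0) in every library, BPA mice in red and control mice in blue, with the mean and SD of each group (n = 4) beside the points; the marker shape gives the replicate number, which does not pair animals. The groups overlap in all 9 panels, Drd1 spreads most among BPA mice, and the BPA values of Adra2a lie close together.

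Striatal tissue, where Drd1 and Drd2 are abundant, was looked for with 11 markers, of which Rgs9, Ppp1r1b and Pde10a also stand among the signalling genes described further on. Their sum was 161 to 169 CPM in BPA mice and 161 to 166 CPM in control mice, most of it Pde10a. Of these markers 9 could be tested, 4 of them higher and 5 lower, without a call. Adora2a, which marks striatal neurons that carry Drd2, was at 0.541 to 0.829 CPM in BPA mice and 0.648 to 0.906 CPM in control mice, and Six3 was at 0.0933 to 0.530 CPM in BPA mice and 0.123 to 2.32 CPM in control mice. The markers of noradrenergic cell bodies were near 0 as well: Dbh, which makes noradrenaline, was below 1 CPM in every library, Slc6a2, the noradrenaline transporter, had no read in 5 of 8 libraries, and Phox2a had none in 7 of 8. Thalamic markers, 8 in number, summed to 140.3 to 152 CPM in BPA mice and 139.9 to 160.3 CPM in control mice, 4 of them higher and 4 lower, without a call.

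Adra1d had the highest count of the receptors in every library and is the alpha-1 subtype that prevails in rodent hippocampus. It had 33.5, 29.3, 26.7 and 28.9 CPM in BPA replicates 1 to 4, against 28.8, 29.5, 30.6 and 31.9 CPM in control replicates 1 to 4. The highest and the lowest library were both BPA mice. The means were 29.6 ± 2.81 CPM in BPA mice and 30.2 ± 1.38 CPM in control mice (SD, n = 4 each), a fold of 0.981 (95% interval 0.887 to 1.09). The log2 fold change was -0.027 with all libraries and 0.0058 without both choroid-rich libraries. Adra1d (chromosome 2, 131545850 to 131562283) is overlapped by an exon of Gm14285 on the opposite strand, and its counts carry the same uncertainty as those of Drd5.

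Adra1a, another Gq-coupled receptor, had 8.09, 8.62, 7.81 and 7.00 CPM in BPA replicates 1 to 4, against 9.21, 8.26, 7.46 and 8.57 CPM in control replicates 1 to 4. BPA replicate 4 was the lowest and control replicate 1 the highest of the 8. The fold was 0.941 (95% interval 0.823 to 1.08), and the log2 fold change was -0.088 with all libraries and -0.093 without both choroid-rich libraries. Adra1b, the weakest of the 9, had 1.43, 1.57, 1.36 and 1.38 CPM in BPA replicates 1 to 4, against 1.73, 1.23, 1.03 and 1.30 CPM in control replicates 1 to 4. All 4 BPA values lay above the control mean of 1.32 CPM and below the highest control. The fold was 1.08 (95% interval 0.834 to 1.40), and the log2 fold change was 0.11 with all libraries and 0.088 without both choroid-rich libraries. With 1 library left out it ran from 0.012, without control replicate 3, to 0.28, without control replicate 1.

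Adra2a is the alpha-2 receptor that serves as autoreceptor on noradrenergic neurons and is also made by their target cells. It had 14.3, 14.1, 13.8 and 13.9 CPM in BPA replicates 1 to 4, against 13.9, 10.9, 13.8 and 12.4 CPM in control replicates 1 to 4. The BPA mice lay close together, all above the control mean, and control replicates 2 and 4 lay below all of them. The means were 14.0 ± 0.197 CPM in BPA mice and 12.8 ± 1.40 CPM in control mice (SD, n = 4 each), a fold of 1.10 (95% interval 0.978 to 1.23; edgeR adjusted p 0.955). The log2 fold change was 0.14 with all libraries and 0.070 without both choroid-rich libraries. With 1 library left out it ran from 0.065, without control replicate 2, to 0.18, without control replicate 1.

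Adra2c, the other alpha-2 receptor, had 12.7, 12.2, 9.79 and 11.2 CPM in BPA replicates 1 to 4, against 12.5, 10.1, 12.3 and 12.2 CPM in control replicates 1 to 4. In each group the library richest in choroid plexus RNA, BPA replicate 3 and control replicate 2, had the lowest Adra2c. The fold was 0.976 (95% interval 0.849 to 1.12), and the log2 fold change was -0.034 with all libraries and -0.035 without these 2. Adrb1, the stimulatory beta receptor, had 11.2, 11.1, 12.1 and 10.8 CPM in BPA replicates 1 to 4, against 12.0, 10.6, 10.8 and 10.2 CPM in control replicates 1 to 4. The highest library was BPA replicate 3 and the lowest control replicate 4, with the rest interleaved. The fold was 1.03 (95% interval 0.930 to 1.15), and the log2 fold change was 0.049 with all libraries and -0.0041 without both choroid-rich libraries.

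To compare receptors with each other, CPM was divided by the length of the annotated exons in kilobases. On this scale Adra1d came first, at 15.6 ± 1.48 CPM per kb in BPA mice and 15.9 ± 0.726 CPM per kb in control mice (SD, n = 4 each), and exceeded Drd5 in all 8 libraries without overlap, by 3.29 times in the means over all 8. Drd5 followed at 4.84 ± 0.305 CPM per kb in BPA mice and 4.71 ± 0.143 CPM per kb in control mice, again above every library of the next receptor. Adrb1 (3.45 to 4.10 CPM per kb over the 8 libraries), Adra2c (2.84 to 3.68) and Adra2a (2.27 to 2.95) formed a run in which each overlapped its neighbour, and all 3 lay above Drd1 (1.30 to 2.09). Drd1 overlapped Adra1a (1.02 to 1.34), which overlapped Drd2 (0.628 to 1.24), and Adra1b came last (0.305 to 0.511), below every value of Drd2.

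The order rests on the exon lengths. These come from GENCODE, while the counted genes are named after refGene, so counts and lengths may cover different exons. Adra1d has the shortest annotated exons of the 9, at 1.90 kb, and Adra1a the longest, at 6.86 kb. With the wider set of GENCODE transcripts, a choice made after seeing the data, Adra2c came before Adrb1 and Drd2 before Adra1a, both within overlapping ranges; the other places were as before. Reads beyond the annotated exons of Adra1d would lower its level per length, but its undivided CPM was also the highest in every library. Among all genes tested the mean CPM of Adra1d stood at the 62.9th percentile, that of Drd5 at the 48.8th, that of Drd2 at the 20.5th and that of Adra1b at the 14.6th.

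**Figure D3:**
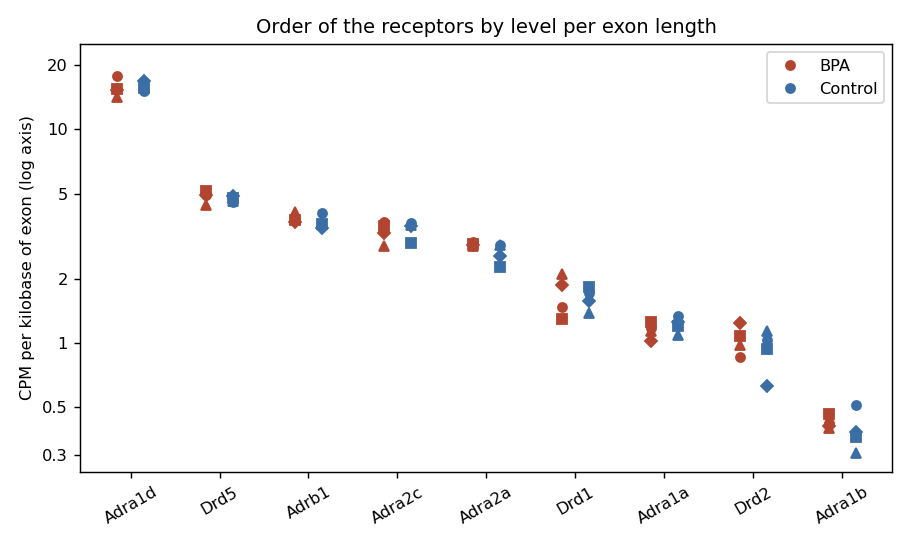
Level of each receptor in CPM per kilobase of exon (log axis) in the 4 BPA libraries (red) and the 4 control libraries (blue), ordered by the mean over all 8. Adra1d stands above all others at 14.1 to 17.6 CPM per kb and Adra1b below all others at 0.305 to 0.511 CPM per kb, while the red and blue points of each receptor overlap.

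The make-up of the receptors within a library was described in the same units. Drd5 made up 67.8%, 68.3%, 59.0% and 61.2% of the summed dopamine receptor level in BPA replicates 1 to 4, against 62.6%, 63.4%, 64.6% and 68.9% in control replicates 1 to 4. The ratio of Drd5 to Drd1 was 3.34, 3.95, 2.11 and 2.63 in BPA replicates 1 to 4, against 2.68, 2.62, 3.34 and 3.10 in control replicates 1 to 4. Drd5 exceeded Drd1 in each of the 8 libraries, and the ratios of the groups overlapped. Of the adrenergic receptors measured here, Adra1d made up 57.2 ± 1.75% of the summed level in BPA mice and 58.3 ± 2.40% in control mice (SD, n = 4 each). Adrb1 made up 14.1 ± 1.43% in BPA mice and 13.5 ± 0.999% in control mice, Adra2c 12.2 ± 0.732% in BPA mice and 12.5 ± 0.794% in control mice, and Adra2a 10.7 ± 0.542% in BPA mice and 9.68 ± 0.861% in control mice. Adra1a and Adra1b each stayed under 5% in every library.

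The receptors differed in how far mice of a group lay apart. Drd1 in BPA mice had a coefficient of variation of 21.6%, where the counting of reads alone would give 6.08%, and Drd2 in control mice one of 23.5%, where counting would give 11.8%. Adra1d, the most deeply counted, varied by 9.51% between BPA mice and 4.56% between control mice, where counting would give 2.72% and 3.17%. For Adra1b counting alone would give 12.4% in BPA mice and 15.5% in control mice, and the observed values were 6.49% in BPA mice and 22.3% in control mice. Adra2a in BPA mice varied by 1.41%, less than the 3.94% that counting alone would give on average, against 10.99% in control mice, where counting would give 4.90%. Counting error here takes each read as an independent molecule, which PCR copies are not.

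**Figure D4:**
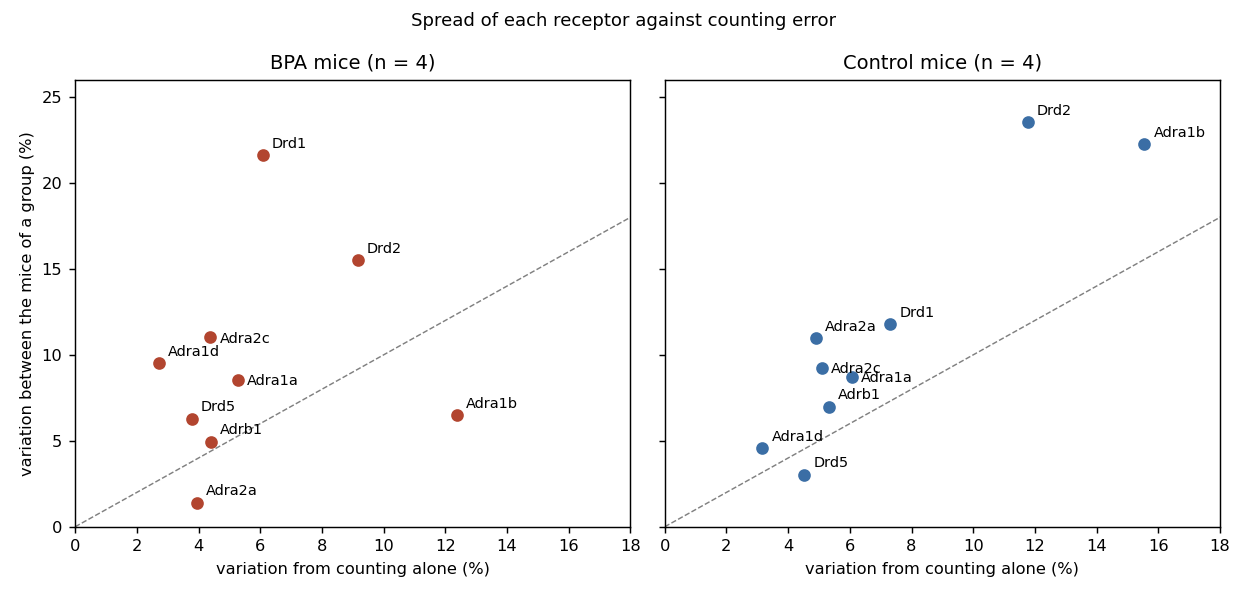
Coefficient of variation of each receptor between the 4 mice of a group (vertical axis) against the variation that the counting of reads alone would give (horizontal axis), for BPA mice on the left and control mice on the right; points above the dashed line vary more than counting gives. Drd1 in BPA mice, at 21.6%, and Drd2 in control mice, at 23.5%, lie far above the line. Adra2a at 1.41% and Adra1b at 6.49% in BPA mice, and Drd5 at 3.04% in control mice, lie below it.

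For each receptor the genes whose level followed it most closely over the 8 libraries were sought among all genes tested, as a description. The closest to Drd1 were Srgn (Pearson r 0.97, Spearman rho 1.00) and Reck (r 0.94), to Drd5 Ccdc18 (r 0.95) and Ypel1 (r 0.94), and to Drd2 Grik3 (r 0.97), a kainate receptor subunit, and Dcn (r 0.96), a proteoglycan of connective tissue. For the adrenergic receptors they were Art3 and 9530026P05Rik for Adra1a (both r 0.92), Dgkq and Hsf4 for Adra1b (both r 0.96), Fam129c (r 0.94) and Rpl32l (r 0.93) for Adra1d, Sf3b4 (r 0.98) and St6galnac4 (r 0.96) for Adra2a, Cabp1 and Btbd2 for Adra2c (both r 0.96), and Osbpl11 for Adrb1 (r 0.96). These values were not tested, as each is among the highest of 15434 genes over 8 libraries, and none of the 9 receptors was among the 2 closest to another. Among the receptors themselves the strongest relation was an inverse one, between Drd1 and Adra2c (r -0.78 over the 8 libraries). It was picked as the strongest of all receptor pairs and was not tested. The libraries also differed in choroid plexus RNA, whose part in this relation was not tested.

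The promoters of the receptors give a feature that neither the choice of these genes nor the counts used. RefSeq start sites on GRCm38.p6 were found for 7 of the 9 genes, all but Adra1a and Adra1d, and 9 start sites in all, as Drd1 and Adra1b have 2 each. In the 250 bases before the RefSeq start, Drd5 held 35 CpG dinucleotides, Adrb1 24, Adra2a 22, Drd2 15 and Adra2c 6. The sites of Adra1b held 22 and 3 and those of Drd1 15 and 5. Over 21198 promoters of genes in the table the median was 10 and the quartiles 3 and 19. By GENCODE, the windows of Adra2a and, but for its first bases, Adra2c lie inside the gene. So do those of the Adra1b site with 22 and the Drd1 site with 5. The windows of Drd5 and of the Drd1 site with 15 lie partly inside it. CpG content followed the order of the levels per length only in part. Drd5, the highest of these 7 genes, held the most CpG, and Adrb1 the next most. Adra2c and Adrb1, however, had overlapping levels and 6 against 24 CpG. Adra1b, the weakest receptor, had start sites with 22 and 3. Short motifs were searched on both strands, the GC box GGGCGG bound by Sp1 and the short motif TGACG bound by CREB, the factor that cyclic AMP activates. The GC box was in 6 of the 9 windows and in 43.0% of all promoters, and the CREB motif was in 2, those of Adra2a and Adrb1, and in 20.7% of all promoters. The full CREB site TGACGTCA, which contains the short motif, was in 0 of the 9 and in 2.01% of all promoters, and the TATA box TATAAA was in 1, that of Adra2a, and in 11.3%. Of the receptors, Drd2 and Adrb1 are shown as a pair that differs in these motifs, from windows that lie before the first base in both RefSeq and GENCODE (chr9:49340153-49340402, plus strand, and chr19:56721867-56722116, plus strand); capitals mark GC boxes and short CREB motifs on either strand.
Drd2: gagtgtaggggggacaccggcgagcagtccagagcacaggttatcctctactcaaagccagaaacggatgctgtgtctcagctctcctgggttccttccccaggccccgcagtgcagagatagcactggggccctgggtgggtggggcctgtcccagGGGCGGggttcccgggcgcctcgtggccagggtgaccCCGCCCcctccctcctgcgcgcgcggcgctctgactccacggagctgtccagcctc
Adrb1: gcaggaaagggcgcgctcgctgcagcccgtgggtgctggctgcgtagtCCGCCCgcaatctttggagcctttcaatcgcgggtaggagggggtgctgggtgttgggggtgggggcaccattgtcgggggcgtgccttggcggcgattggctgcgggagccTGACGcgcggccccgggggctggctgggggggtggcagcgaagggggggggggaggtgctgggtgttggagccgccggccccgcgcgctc
The Drd2 window holds 2 GC boxes and no CREB motif, and the Adrb1 window 1 GC box and 1 CREB motif. A match of letters is not a binding site, and no binding was measured.

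Genes through which these receptors signal were examined in the same fit. Of 51 genes in 6 lists, 48 could be tested, and edgeR called none (adjusted p 0.955 to 0.994); 27 had a log2 fold change above 0 and 21 below, with a median of 0.019. Only Pde1b, a phosphodiesterase that breaks down cyclic nucleotides and is activated by calcium, had an unadjusted p under 0.05 (0.02046). It had 79.9 ± 2.72 CPM in BPA mice and 71.2 ± 6.77 CPM in control mice (SD, n = 4 each), a log2 fold change of 0.16 ± 0.062 (SE), with overlapping groups. This p rose above 0.05 without BPA replicate 3 (0.0550), without control replicate 1 (0.0588), without control replicate 4 (0.0600) and with the library total as a covariate (0.175), by the same edgeR test. It stayed under 0.05 in the other alternatives of the closing section. The lowest was 0.0033 without control replicate 3, by edgeR, where the adjusted p was 0.629. DESeq2 and limma-voom also called none of the 48, and each gave 1 gene with an unadjusted p under 0.05.

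Among the other receptors for these transmitters, Drd3, Drd4 and Adra2b had 11, 6 and 16 reads in the 8 libraries together and did not pass the filter on low counts. Adrb3 was at 0.688 ± 0.0918 CPM in BPA mice and 0.613 ± 0.0857 CPM in control mice (SD, n = 4 each), a fold of 1.11 (95% interval 0.825 to 1.499). The 9 G protein alpha subunits were split 5 higher and 4 lower, with a median log2 fold change of 0.017. The most abundant was Gnao1, the alpha subunit of the neuronal inhibitory Go protein, at 928 ± 32.5 CPM in BPA mice and 917 ± 38.8 CPM in control mice. The one with the smallest p was Gnai3, an inhibitory subunit, at 33.0 ± 1.80 CPM in BPA mice and 35.7 ± 1.63 CPM in control mice (fold 0.924, 95% interval 0.852 to 1.002).

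Of the 10 adenylyl cyclases and phospholipases C beta, which make the second messengers, 4 were higher and 6 lower, with a median of -0.0065. Adcy1, a calcium-stimulated cyclase, was at 1443 ± 43.2 CPM in BPA mice and 1499 ± 96.8 CPM in control mice, and Adcy2, which had the smallest p, at 109 ± 3.56 CPM in BPA mice and 105 ± 3.75 CPM in control mice. Of the 9 genes of protein kinase A and its substrates 6 were higher and 3 lower, with a median of 0.023. Prkar1a, a regulatory subunit, was at 662 ± 17.7 CPM in BPA mice and 681 ± 32.9 CPM in control mice, and Akap5, which anchors the kinase at synapses, at 315 ± 29.7 CPM in BPA mice and 293 ± 20.5 CPM in control mice. The 6 phosphodiesterases, Pde1b included, had a median of -0.020, 2 higher and 4 lower, and Pde2a, the most abundant, was at 466 ± 23.9 CPM in BPA mice and 485 ± 37.6 CPM in control mice.

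The 13 receptor kinases, arrestins and RGS proteins, which end receptor signalling, had a median of 0.043, with 9 higher and 4 lower. Arrb1, an arrestin and the most abundant of them, was at 287 ± 9.54 CPM in BPA mice and 287 ± 6.94 CPM in control mice (SD, n = 4 each). Arrb2, the arrestin with the smallest p of the list, was at 25.9 ± 2.03 CPM in BPA mice and 23.9 ± 1.89 CPM in control mice, a fold of 1.08 (95% interval 0.972 to 1.20). Its log2 fold change was 0.11 with all libraries (edgeR unadjusted p 0.137) and 0.18 without both choroid-rich libraries (unadjusted p 0.0272, adjusted p 0.841). In whole tissue, fewer cells of a type and less RNA per cell cannot be told apart, and a difference within a small cell population can be diluted below these intervals.

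**Figure D5:**
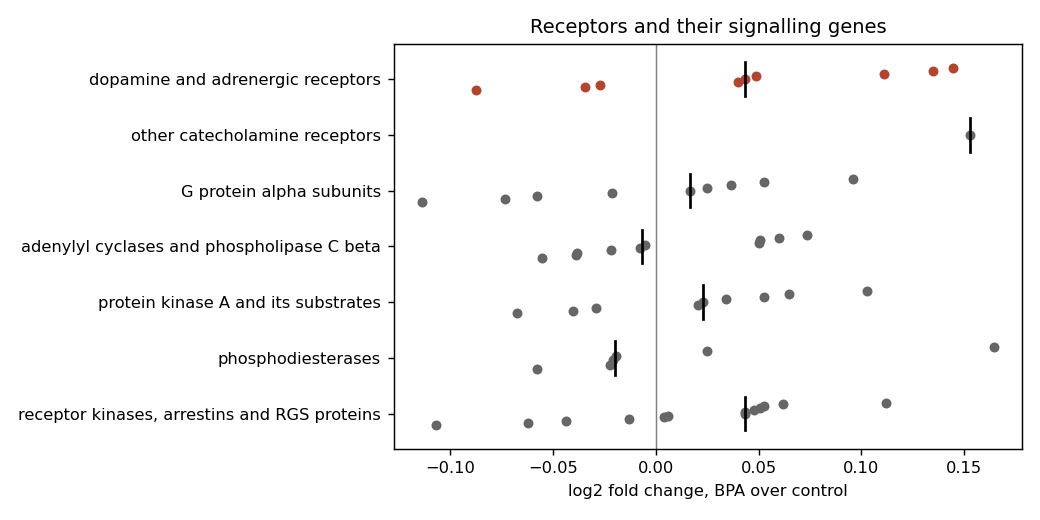
Log2 fold change, BPA over control, of the 9 receptors (red) and of the tested genes of each signalling list (grey), with the median of each list as a vertical bar. The receptors have a median of 0.044 and the 48 signalling genes one of 0.019, with values on both sides of 0 in every list of more than 1 tested gene.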

How the data were processed

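Polyadenylated RNA from hippocampus was made into stranded libraries, per the labels. Raw read counts, 1 row per gene symbol and 1 column per library, were deposited by the authors, with genes named after refGene per the file headers. Trimmomatic 0.32, STAR 2.3.0e and featureCounts 1.5.0 with mm10, and DESeq2 without a version, are named in the submitters' processing notes; no source used here says whether counting used strand. Columns were matched to samples by the library code in the titles. No 2 libraries of a group agreed within sampling noise (12 pairs, chi-square statistic 10.2 to 24.8 times its degrees of freedom).

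After filterByExpr 15434 genes were kept and tested by quasi-likelihood in edgeR 4.0.16 (under R 4.3.3), TMM scaling, 1 group term, two-sided, with Benjamini-Hochberg adjustment over all of them. Standard errors and 95% intervals were derived from the test statistic. The test was checked on simulated counts. DESeq2 1.42.0, limma-voom (limma 3.58.1) and the other settings appear in the closing section. Likeness used log2 CPM with a prior count of 2. Positions and exon lengths come from GENCODE M21 on GRCm38, which is mm10.

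The receptors, lists and alternatives were chosen with earlier results of these data known. Named signalling genes are, per list, the one with the smallest p and the one with the highest mean level; for each receptor the 2 genes of highest Pearson r are named. Some genes that these rules and lists hold are not reported here. The pair of printed promoters, and the relation of Drd1 to Adra2c, were chosen after their values were seen.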

Additional observations from a re-analysis of the deposited data

Results flagged for a closer look

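In 3 of 78 sets of 4 libraries examined, 1 library lay far from the other 3 by Dixon's criterion, which chance meets in about 1 in 20 sets. Adra2c was at 10.1 CPM in control replicate 2, against 12.2 to 12.5 CPM in the other controls. The summed choroid plexus markers were at 3073 CPM in that library, against 205 to 301 CPM in the other controls. Adrb3 was at 0.741 CPM in control replicate 1, against 0.559 to 0.581 CPM in the other controls. This beta receptor had only 15 to 35 reads per library, and its counts may include the overlapping Gm45470.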

How the results depend on the processing

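None of the 9 receptors passed the adjusted threshold under any of 16 alternatives (RLE scaling, no filter on low counts, DESeq2, limma-voom, a replicate block, library total as a covariate, thinning to the smallest total, and leaving out libraries; adjusted p 0.657 to 1.00), and of 144 values 12 had the other sign; the receptors above 0, 6 with all libraries, numbered 4 with the library total as a covariate and 5 to 7 with 1 library left out. Without control replicate 1, Adra2a had an unadjusted p of 0.0453, the only receptor value under 0.05; leaving out 1 library gave 0 to 1 such receptors. With log2 library total as a covariate, Drd2 was at -0.14, Adra1b at -0.20, Adra1d at 0.063 and Adrb1 at -0.039, and among signalling genes Gnai3 at 0.0033, Adcy1 at 0.059, Prkar1a at 0.0065, Pde2a at 0.082, Arrb2 at -0.082 and Arrb1 at -0.015; the cause was not tested. Without control replicate 2 and BPA replicate 3 together, Drd1 was at -0.024, Adra1d at 0.0058 and Adrb1 at -0.0041. By edgeR, 3 signalling genes and 896 of all genes then had an unadjusted p under 0.05, against 1 and 698 with all libraries. Leaving out 1 library at a time, Drd1 ran from -0.080 to 0.15, Adra1a from -0.14 to -0.035, Adrb1 from 0.014 to 0.098, Adra1d from -0.091 to 0.018, Adra2c from -0.10 to 0.034, Gnao1 from -0.011 to 0.040 and Arrb1 from -0.019 to 0.020, and signalling genes with an unadjusted p under 0.05 from 0 to 3. Over all genes DESeq2 called 7, none of them a receptor or signalling gene here, and 0 were called in each of the others, with 354 (without BPA replicate 2) to 1167 (without control replicate 3) at an unadjusted p under 0.05.

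The replicate number as a block gave 0 calls and 498 genes at an unadjusted p under 0.05, against 698 without it; Drd1 was at 0.027 with the block. Libraries with the same number did not deviate together (r -0.37 to 0.070 over 4 pairs), and 0 of 8 libraries correlated best with its own number. With the wider exon lengths, chosen after seeing the data, Adra1a made up 3.42% of the adrenergic level in BPA mice and 3.62% in control mice, and Adrb1 12.7% in BPA mice and 12.2% in control mice. Depth limits Adra1b and Drd2 most, with as few as 32 and 42 reads in a library.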
